A study of Ovis aries with 18 samples.

Results

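The pars tuberalis (PT) of sheep kept for 22 weeks on a long photoperiod (LP) was compared with that of sheep kept for 16 weeks on a short photoperiod (SP). The members were all libraries whose titles gave one of these exposures, 4 of LP22 and 4 of SP16, which made 8 of the 18 libraries of the series. All were from PT of neutered male Scottish Blackface sheep and castration was thus common to both groups. LP22 and SP16 differed in photoperiod and also in its duration, which cannot be told apart in a contrast of these groups. The other groups, LP4 and SP4, had been exposed for 4 weeks and were used only to follow the same genes in other animals. The labels give neither ages nor dates, and number the samples 1 to 4 in each group.

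The PT is a thin sheet of pituitary tissue wrapped around the stalk below the hypothalamus. Its thyrotroph cells carry melatonin receptors, read the length of the night from the nightly melatonin signal, and release thyrotropin on long days, which acts back on the hypothalamus to set seasonal reproduction. The tissue also holds folliculostellate cells and vessels, and it borders on the pars distalis, which makes the other pituitary hormones. In RNA from whole tissue, fewer cells of a type and less RNA per cell cannot be told apart. The count files list genes by Ensembl ID and do not pair the IDs with names, and 0 of the 25197 IDs matched the reference gene table. Markers of thyrotrophs or of neighbouring tissue were therefore not checked here, and genes are described as groups, with 2 IDs that rose and 2 that fell.

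Depth was similar in the groups. LP22 libraries held 1746861 to 2824849 gene counts and SP16 libraries 1936181 to 2690509 (2-sided exact permutation test, p = 0.943, n = 4 each). Reads in no counted feature took 82.8% to 84.5% of aligned reads in LP22 and 81.5% to 83.0% in SP16 (exact permutation p = 0.0571, where 0.0286 is the smallest possible). The share of reads not aligned was 50.9% to 63.0% in LP22, highest in animal 4, and 51.0% to 51.4% in SP16 (exact permutation p = 0.257). Whether these shares had a part in any result was not tested. Correlations of log2 counts per 1000000 counts (CPM) across genes, which are not independent replicates, were 0.945 to 0.960 within LP22, 0.953 to 0.962 within SP16 and 0.918 to 0.950 between them. The first principal component held 32.8% of the variance, with all LP22 animals on one side and all SP16 animals on the other. In the 4-week groups, the LP4 libraries of animal 3 and of animal 2 (first library) stand apart from the rest. In that order, reads in no feature took 47.2% and 68.8% of aligned reads, and 62.9% and 84.3% of reads were not aligned. Their 10 most abundant genes held 65.2% and 52.6% of gene counts. The 4-week results are given without both and, where stated, with them. The repeat library of LP4 animal 2, which was kept, also differs from the rest: its 10 most abundant genes held 59.2% of its gene counts, against 38.6% to 42.5% in the first libraries of SP4 and of LP4 animals 1 and 4, and 63.6% of its reads were not aligned. Every 4-week result therefore rests on this library for 1 of 3 LP4 animals, except where animal 2 was left out. SP4 animal 1 is the sum of a first library with 1730773 gene counts and a repeat with 4119508. The 10 most abundant genes held 38.9% of gene counts in the first and 47.0% in the repeat. For 1 of 4 SP4 animals the 4-week results thus rest mainly on a repeat library.

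LP22 and SP16 differed in 515 of 12353 genes tested, 4.17% of the total. The threshold was a Benjamini-Hochberg false discovery rate (FDR) under 0.05 in edgeR's quasi-likelihood test. Of these, 266 were higher in LP22 (2.15% of the genes tested) and 249 were lower (2.02%). The median log2 fold change was 0.75 for the higher genes and −0.82 for the lower genes, and −0.004 for all genes tested. A change of at least 2-fold was found for 90 higher and 77 lower genes, and of at least 4-fold for 22 higher and 10 lower genes. The 7 genes that changed by at least 8-fold were all higher in LP22. The smallest change called was 0.30 on the log2 scale among the higher genes.

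**Figure D1:**
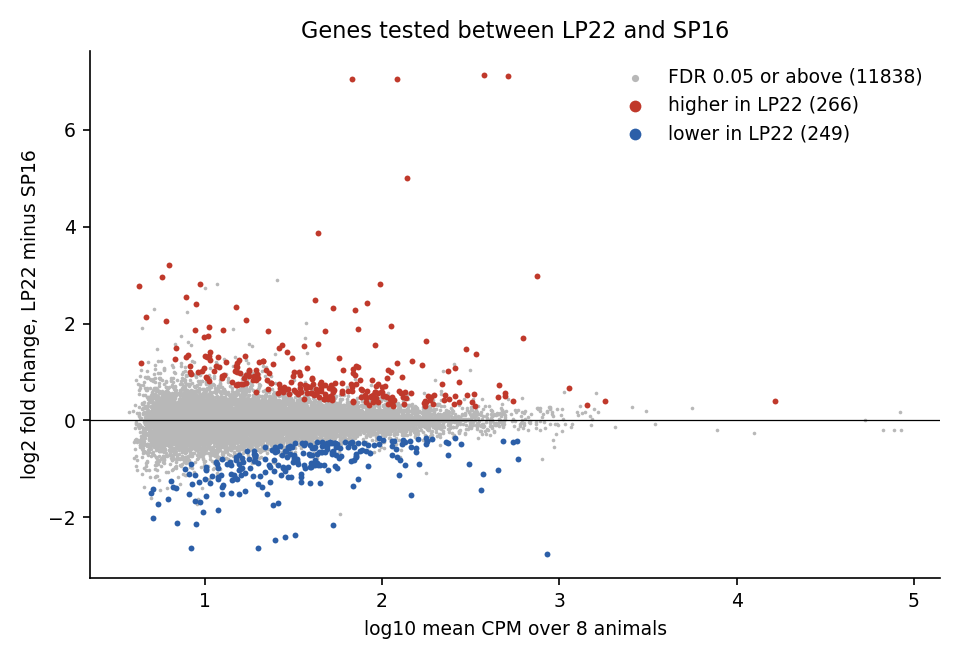
Log2 fold change between LP22 and SP16 (vertical axis) against log10 of the mean CPM over 8 animals (horizontal axis), with 1 point for each of 12353 genes. Red points are the 266 genes higher in LP22, blue points the 249 lower genes; 4 red points lie near 7 and stand above all others.

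The groups did not overlap for 487 of the 515 genes, so that every animal of one group lay above every animal of the other, against 11.3% of all genes tested. By direction these were 248 higher genes, against 5.5% of all genes tested, and 239 lower genes, against 5.82%. Overlap of at least 1 pair of animals was left in 18 higher and 10 lower genes. For 23 higher and 6 lower genes the nearest animals of the groups still differed at least 2-fold, with 0.5 CPM added to each value. Over all genes tested this held for 29. The 515 genes were called on these same animals, so these counts describe the calls and are no test of them. The spread within groups was alike: the median SD of log2 CPM over all 12114 genes at a mean of 5 CPM or more was 0.226 in LP22 and 0.218 in SP16. Among the lower genes it was 0.249 in LP22 and 0.200 in SP16, and among the higher genes 0.213 and 0.201. The biological coefficient of variation common to all genes was 0.137.

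Calls were more frequent among abundant genes, which were also measured with less error. At a mean below 5 CPM, 4 of 239 genes were called (1.67%), and at 5 to 50 CPM 301 of 9306 (3.23%). At 50 to 500 CPM the count was 198 of 2704 (7.32%), and at 500 CPM or more it was 12 of 104 (11.5%). The median SE of the log2 fold change fell over the same bands from 0.36 to 0.21, 0.10 and 0.09, and the median size of a called change was 1.82, 0.92, 0.57 and 0.56. Below 5 CPM no change under 1.19 on the log2 scale was called. The counts by direction differed between the bands, which was not tested. Below 5 CPM 3 genes were higher and 1 lower in LP22, and at 500 CPM or more 8 were higher and 4 lower. At 5 to 50 CPM 134 genes were higher and 167 lower in LP22, and at 50 to 500 CPM 121 were higher and 77 lower. Of the 100 most abundant genes, all of them in the band of 500 CPM or more, 7 were higher and 4 lower.

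**Figure D2:**
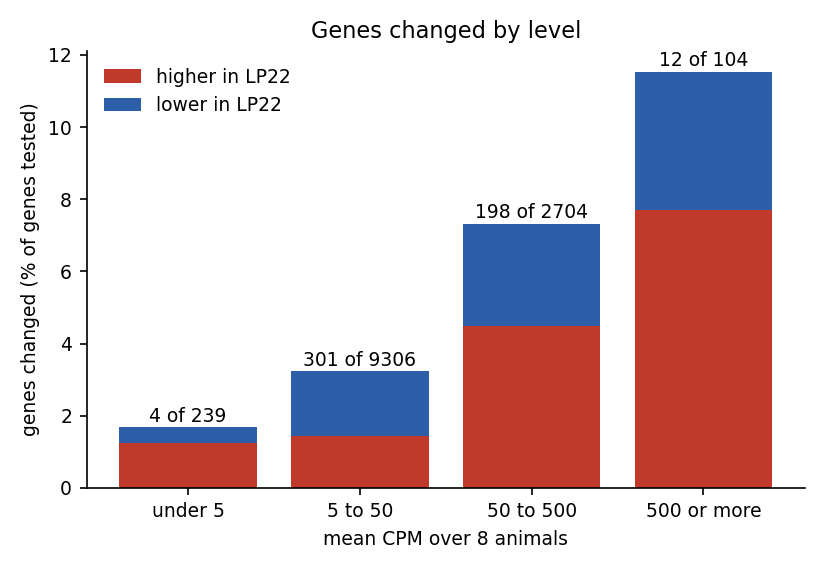
Share of tested genes that changed between LP22 and SP16 (vertical axis, percent) in 4 bands of mean CPM over 8 animals (horizontal axis). Red is higher and blue lower in LP22, and the numbers give genes changed of genes tested, from 4 of 239 below 5 CPM to 12 of 104 at 500 CPM or more.

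Together the higher genes made up 4.75% to 5.73% of scaled counts in LP22 and 3.22% to 3.50% in SP16. The lower genes made up 1.10% to 1.30% in LP22 and 1.87% to 2.34% in SP16. These shares describe the genes chosen for their difference and are no test of it.

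The gene with the lowest p-value was ENSOARG00000010135. It stood at 104, 90.1, 67.7 and 91.9 CPM in LP22 animals 1 to 4 and at 18.4, 16.8, 18.03 and 17.1 CPM in SP16 animals 1 to 4. The SP16 animals lay within a narrow band, and the lowest LP22 animal was well above it. Its log2 fold change was 2.32 in edgeR (SE 0.14, adjusted p 2.09e-06), a 4.98-fold difference. After 4 weeks it did not separate the photoperiods. The SP4 animals stood at 32.6, 40.8, 30.5 and 32.1 CPM, and LP4 animals 1, 2 and 4 at 70.2, 21.4 and 32.7 CPM, so that the groups overlapped. The log2 fold change of LP4 against SP4 was 0.29 in edgeR (SE 0.32, adjusted p 0.778). In the fits that left out an animal it ran from −0.33 without LP4 animal 1 to 0.60 without LP4 animal 2. None of these fits called it, and the lowest adjusted p was 0.329 in edgeR, without LP4 animal 2.

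The next by p-value was ENSOARG00000018841, at 82.7, 74.8, 56.0 and 71.6 CPM in LP22 and 9.91, 13.2, 13.3 and 13.9 CPM in SP16. All LP22 animals again lay above all SP16 animals, with animal 3 the lowest of LP22 in both genes. The log2 fold change was 2.49 in edgeR (SE 0.16, adjusted p 2.09e-06). This gene was also higher after 4 weeks of LP, at 61.3, 58.2 and 27.3 CPM in LP4 animals 1, 2 and 4 against 17.5, 18.1, 20.8 and 24.4 CPM in SP4. The log2 fold change there was 1.29 in edgeR (SE 0.25, adjusted p 0.0469). That call was lost in 6 of the 7 leave-one-out fits, with adjusted p of 0.0738 to 0.178, and remained in the fit without LP4 animal 4 (adjusted p 0.00227 in edgeR).

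Among the genes lower in LP22, ENSOARG00000021140 had the lowest p-value. It was at 39.1, 40.6, 37.1 and 37.2 CPM in LP22 and at 101, 77.2, 111 and 105 CPM in SP16. Here LP22 was the tighter group. The log2 fold change was −1.36 in edgeR (SE 0.12, adjusted p 2.38e-05). At 4 weeks LP4 animals 1, 2 and 4 stood at 48.2, 88.4 and 58.8 CPM and the SP4 animals at 77.4 to 92.1 CPM, which overlapped. The log2 change there was −0.37 in edgeR (SE 0.18, adjusted p 0.455). Without LP4 animal 2 it was −0.65 (adjusted p 0.0410 in edgeR). No other leave-one-out fit called this gene, with adjusted p of 0.482 to 0.755 in edgeR.

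ENSOARG00000013347 was the most abundant of the 4 and had the largest fall of all lower genes. It stood at 144, 143, 224 and 369 CPM in LP22 and at 1477, 1476, 1554 and 1466 CPM in SP16. The log2 fold change was −2.76 in edgeR (SE 0.24, adjusted p 2.38e-05), a 6.77-fold difference. LP22 animal 4, the highest of its group, was still far below every SP16 animal. At 4 weeks LP4 animals 1 and 4 stood at 431 and 406 CPM and animal 2 at 991 CPM, against 891 to 1402 CPM in SP4. The log2 fold change there was −0.89 in edgeR (SE 0.30, adjusted p 0.250). Without LP4 animal 2 it was −1.43 (adjusted p 0.00203 in edgeR). No other leave-one-out fit called this gene, with adjusted p of 0.337 to 0.491 in edgeR.

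**Figure D3:**
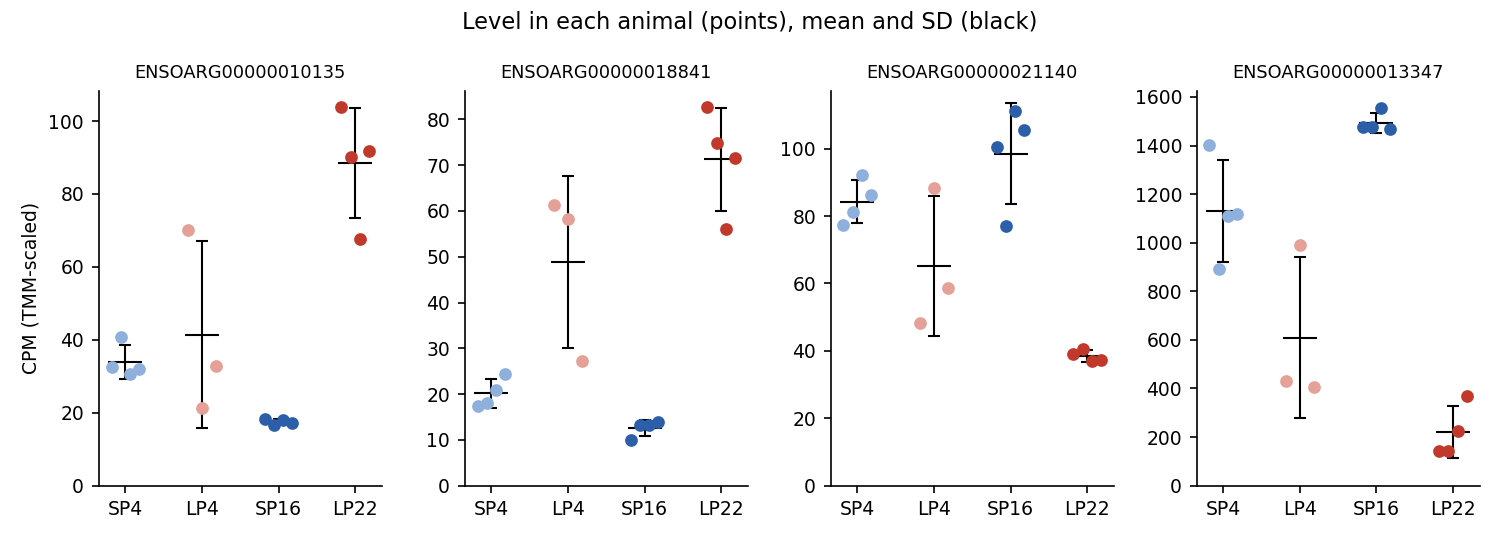
Level of the 4 genes in each animal (vertical axes, TMM-scaled CPM from 0) in SP4, LP4, SP16 and LP22 (horizontal axes). Points are animals, 3 for LP4 and 4 for each other group, and black lines are mean and SD; LP22 and SP16 do not overlap in any of the 4 panels. LP22 and SP16 values are scaled over 8 animals and the 4-week values over 15.

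A group of 4 genes with the highest fold changes varied together and were most extreme in 1 animal. They were examined together after their values were seen. Their log2 fold changes were 7.04 to 7.14 with SEs of 1.33 to 1.57 (FDR 0.00743 to 0.0225 by edgeR), and the next gene had 5.001 (SE 0.41, FDR 2.37e-05). Summed over the 4 genes, the level was 209, 7747, 374 and 218 CPM in LP22 animals 1 to 4. In SP16 it was 2.36, 39.1, 8.29 and 13.4 CPM. Animal 2 of LP22 was far above its group, yet none of the 4 genes had overlapping groups. Without this animal the log2 fold changes were 4.03 to 4.51, and all 4 genes were still called (FDR 0.000134 to 0.000363 by edgeR). The number called over the 8 leave-one-out fits ran from 2 to 4, and none of the 4 was called with the robust dispersion fit or with all 16 animals. All 4 were called with 15 animals, and DESeq2 gave no p-value for any of the 4.

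The same 4 genes did not follow photoperiod at 4 weeks. Their summed level was 4.08, 2.93 and 2.94 CPM in LP4 animals 1, 2 and 4. In SP4 it was 549 CPM in animal 1 and 1.65, 2.31 and 7.22 CPM in animals 2 to 4. The value of SP4 animal 1 came from its repeat library. The labels give this animal a first and a repeat library, with an unscaled sum of 23.1 CPM (40 counts) in the first and 738 CPM (3040 counts) in the repeat. The first library was below every LP22 animal, and the counts do not show whether both libraries are from the same animal. All 4 genes failed the filter on low counts in the 4-week comparison.

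Whether an animal outside a fit took the side of its own group was examined by leaving it out. Genes were called on the other 7 animals, and the animal was placed between the means of the remaining groups on log2 CPM, with SP16 at 0 and LP22 at 1. The median positions of LP22 animals 1 to 4 were 0.929, 1.09, 0.664 and 0.877, over 399, 326, 497 and 364 genes. Those of SP16 animals 1 to 4 were 0.143, 0.0631, −0.0162 and 0.196, over 343, 366, 286 and 400 genes. All 8 animals lay nearer to their own group. LP22 animal 3, the most deeply sequenced of the 8, was nearest to the middle, with 67.2% of its genes on the LP22 side, against 79.0% to 91.6% on the own side in the other animals. Its position was alike for higher genes (0.664) and lower genes (0.665).

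LP4 and SP4 share no animal with LP22 and SP16, so the 515 genes could be followed in animals that played no part in choosing them. In the 4-week groups 504 of the 515 passed the filter on low counts, among them all 249 lower genes but 255 of the 266 higher genes. On the axis from SP16 to LP22, LP4 animals 1, 2 and 4 lay at 0.670, 0.824 and 0.638. The SP4 animals lay at 0.333, 0.243, 0.276 and 0.249. The photoperiods did not overlap, with means of 0.711 ± 0.099 (SD, n = 3) and 0.275 ± 0.041 (SD, n = 4). The 2-sided exact permutation p was 0.0571, the smallest these 35 regroupings allow. The ends of this axis are means of the animals that chose the genes. LP22 animals left out of the fit lay at 0.664 to 1.09, a range that holds LP4 animals 1 and 2 but not animal 4. SP16 animals left out of the fit lay at −0.0162 to 0.196, below every SP4 animal. Whether the choice of genes had a part in the 4-week positions was not tested. Without LP4 animal 2, the remaining LP4 animals still lay above every SP4 animal.

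By direction, the LP4 animals were placed further along the axis by the higher genes than by the lower genes. Over the 255 higher genes LP4 animals lay at 0.803, 0.841 and 0.696 and SP4 animals at 0.177 to 0.226. Over the 249 lower genes the values were 0.572, 0.811 and 0.595 in LP4 and 0.296 to 0.437 in SP4. The difference between LP4 and SP4 was 0.573 for higher and 0.319 for lower genes (exact permutation p = 0.0571 for each, n = 3 and 4). The difference between the directions was not tested.

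With all LP4 libraries included, LP4 animal 2 moved to 0.582 and LP4 animal 3 lay at −0.966, below every SP4 animal. The other LP4 animals then lay at 0.689 and 0.631 and the SP4 animals at 0.237 to 0.336. LP4 animal 3 thus lay outside the range between the groups, beyond the SP16 end. In its library 47.2% of aligned reads were in no feature, and the 10 most abundant genes held 65.2% of gene counts. Its position is not read as a photoperiod state, and the statements on 4 weeks hold for the animals without it.

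**Figure D4:**
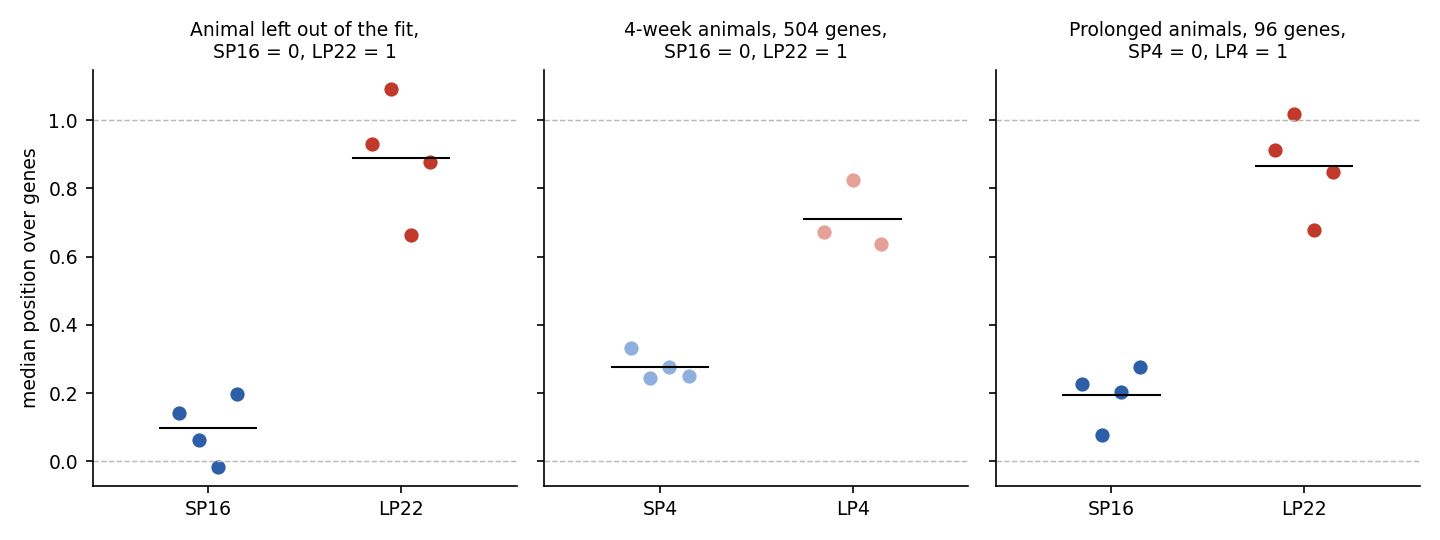
Median position of each animal over genes (vertical axis), where 0 is the mean of the short and 1 the mean of the long photoperiod group named above each panel. Points are animals and black lines group means; long and short photoperiod do not overlap in the left panel (animals left out of the fit), the middle panel (4-week animals on genes changed between LP22 and SP16) or the right panel (LP22 and SP16 animals on genes changed between LP4 and SP4).

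Gene by gene, 415 of the 504 genes (82.3%) had the same sign in LP4 against SP4 as in LP22 against SP16, against 56.5% of the 12170 genes tested at both times. This share was 87.5% of the higher and 77.1% of the lower genes. With all LP4 libraries it was 251 of 502 genes, and over the fits that left out 1 of the 7 animals it ran from 75.6% to 85.1%. The median log2 fold change of the higher genes was 0.74 late and 0.43 at 4 weeks, and that of the lower genes −0.82 late and −0.27 at 4 weeks. The change was smaller at 4 weeks for 441 of the 504 genes, and since these genes were chosen for a large late change, a smaller value in other animals is the usual case.

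At FDR under 0.05, 96 of 12720 genes differed between LP4 and SP4 (0.755%), of which 65 were higher and 31 lower in LP4. Of these, 91 were tested at the late times and 47 were also called there, 37 higher and 10 lower on LP at both. All 47 had the same sign at both times. They made up 51.6% of the 4-week calls tested late and 9.33% of the late calls tested at 4 weeks. The share of late calls that were called at 4 weeks was 14.5% for higher genes and 4.02% for lower genes. Among genes that changed at least 2-fold late it was 24 of 79 for higher genes and 4 of 77 for lower genes. These counts depended on the libraries: with all LP4 libraries 1 gene was called at 4 weeks and 0 of the late calls, and without LP4 animal 2 153 were called, 62 of them also late. The lowest of the other fits that left out an animal was 30 called and 20 also late, without LP4 animal 1. Without SP4 animal 1, whose counts come mainly from a repeat library, 68 were called and 37 of them also late.

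**Figure D5:**
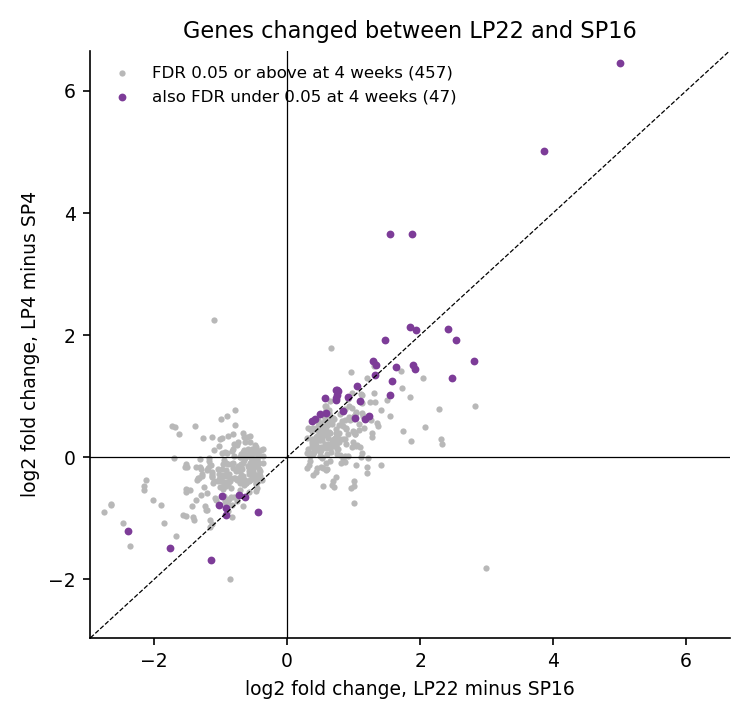
Log2 fold change of LP4 against SP4 (vertical axis) against that of LP22 and SP16 (horizontal axis) for the 504 genes changed between LP22 and SP16 and tested at both times. Purple points are the 47 genes also called at 4 weeks, all of the same sign at both times, and the dashed line marks equal change.

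The reverse question was whether genes chosen at 4 weeks placed the prolonged animals. Over the 96 genes called between LP4 and SP4, with SP4 at 0 and LP4 at 1, LP22 animals 1 to 4 lay at 0.912, 1.02, 0.679 and 0.847. The SP16 animals lay at 0.227, 0.0757, 0.202 and 0.278. The means were 0.864 ± 0.142 and 0.196 ± 0.086 (SD, n = 4 each; 2-sided exact permutation p = 0.0286, the smallest that 70 regroupings allow). LP22 animal 3 was again the lowest of its group.

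The difference between the late and the 4-week change was tested as an interaction in 15 animals, where 12 of 13446 genes passed at FDR under 0.05 in edgeR. Of the 515 genes, 6 were among them, and 223 (43.3%) had an unadjusted p under 0.05, against 1407 (10.5%) of all genes tested. The 515 were chosen for their late change, which is one side of this difference, so nothing is read from the higher share. ENSOARG00000010135 was one of the 6, with a log2 difference of 2.04 in edgeR (SE 0.37, adjusted p 0.0440). For the other 3 IDs the differences were 1.20 for ENSOARG00000018841, −0.99 for ENSOARG00000021140 and −1.86 for ENSOARG00000013347, with FDRs of 0.186, 0.0996 and 0.0931 by edgeR.

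The count of 515 rested on the libraries in the fit. It was 329 without LP22 animal 2 and 291 without SP16 animal 3, and 36 when all 16 animals, with the LP4 libraries that stand apart, shared 1 estimate of the spread.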

How the data were processed

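RNA-seq libraries of PT were compared, 4 of LP22 and 4 of SP16. The authors aligned reads with Bowtie, handled alignments with SAMtools and deposited raw HTSeq counts per gene; the submitters' processing notes name build Oar_v3.1. Versions, strand setting and counted feature are not given in the sources used here. The 5 HTSeq summary lines, among them reads in no feature, were kept out of library sizes and tests.

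Genes were kept with filterByExpr (minimum count 10, minimum total 15), scaled by TMM and tested with glmQLFit and glmQLFTest of edgeR 4.0.16 in R 4.3.3, 2-sided, on the 8 animals alone. SEs were derived from the F statistic. CPM are TMM-scaled over 8 animals; 4-week levels and positions that involve 4-week animals use the scale of 15 animals, or of 16 where all LP4 libraries are included. Positions are medians over genes on log2(CPM + 0.5). Repeat libraries were added to the first of the same animal. P-values from edgeR set the difference between groups against the spread between animals of a group. Those of the permutation tests set it against regroupings of the samples. On simulated data with 12353 genes, 76.5% of changes of 1 and 99.0% of changes of 2 on the log2 scale were recovered for LP22 against SP16. Of the genes called there, 4.92% were false. The simulated counts followed the model that the test assumes, with the spread and depth estimated from these 8 animals and no outlying animal. These shares therefore check the procedure and do not measure the error in the real data.

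No columns of other samples were present. The rule for named genes asked for symbols, gene lists and marker lists. Symbols could be taken from neither the files nor the reference table, and those listed in the study's own supplementary tables of differential genes were not used. The parts of the rule that need symbols were therefore dropped after the data had been seen, and the part for IDs without a symbol was applied to all IDs: the 2 with the lowest p in each direction. Members, rules and lists were chosen with earlier results of these data known. Alternatives were other scalings, filters, tests (DESeq2 1.42.0), thresholds, samples and a replicate block. Figures were drawn with matplotlib 3.10.9.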

Additional observations from a re-analysis of the deposited data

Results flagged for a closer look

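For each of the 4 named genes, LP22 and SP16 were searched for an animal far outside the rest of its group. Of these 8 groups 1 held such an animal, where chance gives 0.4. ENSOARG00000013347 stood at 1554 CPM in SP16 animal 3, against 1466 to 1477 CPM in animals 1, 2 and 4. The gap is small beside the LP22 level of 220 ± 106 CPM (SD, n = 4).

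For ENSOARG00000010135 the difference between the LP and SP groups was not the same in the prolonged and the 4-week animals. It differed by 2.04 on the log2 scale (FDR 0.0440 by edgeR's interaction test in 15 animals). The late groups differed in duration, and the LP4 animals ran from 21.4 to 70.2 CPM. The interaction was not refitted with an animal left out.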

How the results depend on the processing

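The count of 515 genes was 36 with all 16 animals in the fit (35 of them among the 515), 202 at FDR under 0.01 and 167 when a change of at least 1 on the log2 scale was also asked for. Leaving out 1 animal gave 291 (without SP16 animal 3) to 505 (without LP22 animal 3). The other settings gave 434 (15 animals, without the LP4 libraries that stand apart; 385 of them among the 515) to 696 (edgeR exact test). The replicate block gave 497 genes, 415 of them among the 515. Same-numbered animals had correlations of deviations from −0.173 to 0.137, and 1 of 4 LP22 animals correlated best with its own number, so the animals share a number and no pairing is shown. The 4 named genes kept their direction in 72 values under alternatives and their call in all but 1, ENSOARG00000021140 with all 16 animals (FDR 0.99998 by edgeR). They were chosen for the lowest p-values in these same animals, so their stability does not extend to the other calls.

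At 4 weeks 1 of the 4 named genes was called. That count was 0 with all LP4 libraries and 0 with the replicate block, and 0 to 2 when an animal was left out. The block called 20 genes at 4 weeks in place of 96. The 4-week alternatives and those of library totals were chosen after seeing the data; the latter leave 3 animals against 4, where no p under 0.0571 is possible. Counts in gene lists could not be given under any setting, because the sources of names used here matched no list member to an ID. Below 5 CPM 4 of 239 genes were called, and the smallest change among them was 1.19 on the log2 scale. Whether depth had a part in this was not tested.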
